A study of Mus musculus with 9 samples.

Results

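The 4 syndecan genes Sdc1, Sdc2, Sdc3, and Sdc4, the 4 glypican genes Gpc1, Gpc3, Gpc4, and Gpc6, the hyaluronan synthase gene Has2, and the versican gene Vcan were examined by RNA-Seq. They were chosen by name as cell-surface heparan sulfate proteoglycans and genes of the hyaluronan matrix, with earlier results of these data known. They were matched by symbol to 10 of the 50686 genes in the deposited count table. The study asked whether the GSK3 inhibitor SB216763 moves osteoblasts toward an endothelial state. Libraries came from untreated control MC3T3-E1 cells, from MC3T3-E1 cells given 10 μM SB216763 for 14 days, and from mouse pulmonary endothelial cells (ECs), with n = 3 libraries in each group. MC3T3-E1 is a clonal mouse osteoblast line from newborn calvaria, so both osteoblast groups stand for 1 line, and the time in culture of the control cells is not given in the sources used here. The ECs received no treatment and had been sorted by FACS from mouse lung, per the study's legends, and the strain and age of the mice are likewise not given in the sources used here. Nothing in the labels says that the 3 libraries of a group came from separate cultures or animals, and p-values then measure only the spread between these samples, which may be technical.

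The libraries held from 30990107 to 68946333 counts, so 3 counts, taken as the floor, were worth from 0.0435 to 0.0968 CPM (counts scaled to a common library total), which covers counting error only. All 8 endothelial markers examined, among them Cdh5 and Pecam1, were expressed in the ECs, where they summed to between 6641 and 6813 CPM. They summed to between 2.60 and 3.47 CPM in control and between 2.68 and 3.04 CPM in treated osteoblasts, and 0 of the 8 reached 1 CPM there. The 6 osteoblast markers summed to between 20090 and 28687 CPM in control osteoblasts, to 2826 to 2975 CPM in the treated cells, and to 28.9 to 38.3 CPM in ECs. Markers of mural cells summed to between 49.4 and 72.1 CPM in control osteoblasts, 26.3 and 28.9 CPM in treated osteoblasts, and 4.48 and 5.61 CPM in ECs. Cspg4, Notch3, and Des, at means of 33.2, 20.9, and 8.02 CPM, gave most of the mural sum in control osteoblasts. Markers of blood cells summed to at most 28.0 CPM and those of lung epithelium to at most 3.27 CPM in any library. Of these highest sums, Lyz2 alone gave 27.3 CPM in control replicate 2, and Ager alone gave 3.19 CPM in treated replicate 3. Cd3e, Epcam, and Sftpa1 were at 0 in all 9 libraries. The part of these other cells in the results was not tested.

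Heparan sulfate proteoglycans carry long sulfated sugar chains on a core protein and present growth factors such as FGFs, BMPs, and Wnts to their receptors. Syndecans cross the membrane, whereas glypicans are tethered to its outer face by a lipid anchor. Hyaluronan, a sugar polymer with no core protein, is spun out at the cell surface by hyaluronan synthases, and versican, a large chondroitin sulfate proteoglycan, binds to it. Together they form much of the endothelial glycocalyx, the sugar coat that lines vessels, and of the pericellular matrix of connective tissue cells.

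The syndecans end in a short cytoplasmic tail that binds PDZ-domain proteins such as syntenin. Because reads of near-identical genes could be split between them, the last 60 coding bases of each syndecan are shown, stop codon included, from GENCODE mouse release 21 transcripts. Capitals mark the 4 codons before the stop, the end of the PDZ-binding tail.
Sdc1: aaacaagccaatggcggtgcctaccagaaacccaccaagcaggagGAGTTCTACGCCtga
Sdc2: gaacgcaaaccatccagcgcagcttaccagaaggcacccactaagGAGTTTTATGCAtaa
Sdc3: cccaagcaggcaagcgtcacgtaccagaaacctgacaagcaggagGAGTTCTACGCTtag
Sdc4: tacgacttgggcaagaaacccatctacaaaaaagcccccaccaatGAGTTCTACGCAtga

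In these ends, Sdc1 and Sdc3 were identical at 63.3% of the positions and Sdc2 and Sdc4 at 51.7%, while the other pairs shared between 36.7% and 43.3%. Over the whole transcripts, the longest exact run that any pair of the 10 members shared was 29 bases, between Sdc3 and Sdc4. The syndecan coding sequences held 311, 202, 442, and 198 codons for Sdc1 to Sdc4, against between 557 and 579 for the 4 glypicans, 552 for Has2, and 3354 for Vcan.

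The first comparison asked what SB216763 did to these genes in osteoblasts. Has2 nearly disappeared, to 4.66% of its control level. The glypicans Gpc1, Gpc4, and Gpc6, the syndecan Sdc3, and Vcan fell by smaller amounts, Sdc4 rose, and Sdc1 and Sdc2 did not pass the test. Of the 9 members that passed the expression filter, 6 were lower and 1 higher at a false discovery rate (FDR) under 0.01, against 32% of the 15531 genes tested lower and 32.9% higher. With the further requirement of a log2 fold change of 2 or more in size, Has2 alone passed, where 5.84% of all genes tested passed as lower. The median log2 fold change of the 9 members was -0.85, against 0.01 over all genes tested. The members were chosen with earlier results of these data known, so this median is a description. In bulk RNA, fewer cells of a type and less RNA per cell cannot be told apart.

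Sdc3, the syndecan with the longest extracellular part, known from neural and musculoskeletal tissue, had 1128, 1127, and 1105 CPM in the control libraries and 505, 529, and 483 CPM in the treated ones. Every treated library was far below every control library, and Sdc3 fell by 1.15 on the log2 scale (SE 0.05, Benjamini-Hochberg adjusted p = 5.64e-12, quasi-likelihood test of edgeR). Sdc4, the syndecan of focal adhesions, had 221, 222, and 209 CPM in the control libraries and 351, 351, and 321 CPM after treatment. It was the single member that rose, with a log2 fold change of 0.65 (SE 0.05, edgeR adjusted p = 4.33e-09) and no overlap between the groups. Sdc1, a syndecan of epithelia that is also found in endothelium, had 249, 272, and 244 CPM before and 267, 278, and 247 CPM after treatment. Those groups overlapped, with a log2 fold change of 0.05 (SE 0.05, edgeR adjusted p = 0.436). Sdc2, a syndecan abundant in mesenchymal cells, had 649, 626, and 581 CPM in the control libraries and 599, 569, and 527 CPM in the treated libraries. These ranges also overlapped, and the log2 fold change of -0.13 (SE 0.06, edgeR adjusted p = 0.0463) missed the threshold. The direction of Sdc2 depended on the scaling, since its log2 fold change was 0.07 when libraries were scaled by their totals alone. That scaling moved the median of all genes from 0.01 to 0.22. Under that scaling Sdc1 passed as higher, at 0.25 (edgeR adjusted p = 4.17e-04).

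Gpc1, the glypican of the vascular and neural cell surface, had 1635, 1726, and 1653 CPM in control osteoblasts. It stood at 852, 887, and 804 CPM after treatment, with no overlap, and fell by 0.98 on the log2 scale (SE 0.05, edgeR adjusted p = 9.37e-11). Gpc4, which is widely expressed in progenitor cells and binds Wnts and FGFs, went from 293, 285, and 284 CPM to 166, 162, and 150.4 CPM. Gpc6, a glypican required for the growth of long bones, went from 133, 114, and 126 CPM to 65.9, 68.7, and 64.8 CPM. Neither gene had overlapping groups, and they fell by 0.85 and 0.90 on the log2 scale (SE 0.05 for both, edgeR adjusted p = 4.14e-10 and 3.31e-10). The 3 glypicans thus fell to between 50.7% and 55.5% of their control levels. Gpc3, a glypican that restrains growth and binds Hedgehog, was barely detected. Its counts were 11, 4, and 4 in control osteoblasts, all above the floor of 3 counts. In treated osteoblasts they were 2, 2, and 1, all under it. Scaled for depth, the nearest libraries were control replicate 2 at 0.0728 CPM and treated replicate 1 at 0.0573 CPM. Gpc3 did not pass the expression filter. A fit with no filter gave a log2 fold change of -1.43 (SE 0.81, edgeR adjusted p = 0.165), which did not pass.

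Has2, the main hyaluronan synthase of mesenchymal cells, had 26.2, 26.7, and 25.7 CPM in the control libraries. In the treated libraries it had 1.23, 0.938, and 1.50 CPM, from 43, 36, and 55 counts. The treated libraries were all far below the controls, and the change was 21.5-fold, a log2 fold change of -4.42 (SE 0.11, edgeR adjusted p = 6.79e-15). Has2os, a transcript on the opposite strand of the Has2 locus, also fell, with a log2 fold change of -2.83 (edgeR adjusted p = 1.90e-07). Its control mean was 1.82 ± 0.155 CPM (SD, n = 3), and since the strand setting of the counting is not given, reads of the pair cannot be told apart. Vcan had 35.3, 24.8, and 35.2 CPM in the control libraries and 17.5, 18.4, and 22.1 CPM after treatment. Control replicate 2 lay nearest to the treated libraries, but the groups did not overlap, and Vcan fell by 0.71 on the log2 scale (SE 0.12, edgeR adjusted p = 4.14e-05). Leaving out 1 library gave log2 fold changes of Vcan from -0.87, without control replicate 2, to -0.62. In all, the control and treated libraries did not overlap for 7 of the 9 tested members, against 73.2% of all genes tested.

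**Figure D1:**
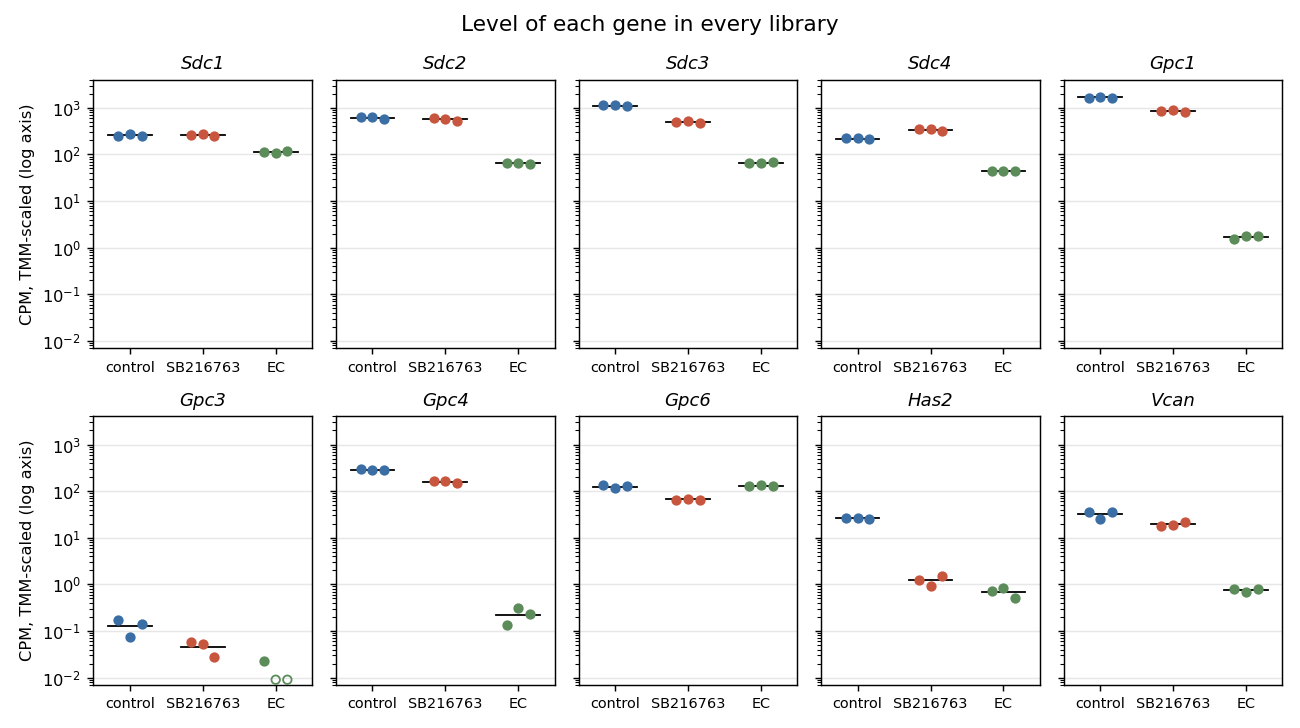
CPM (log scale) of the 10 members in each library of control osteoblasts, SB216763-treated osteoblasts, and ECs, with 1 point per library, a line at the mean of each group, and open points at the bottom for libraries with 0 counts. Has2 falls from about 26.2 CPM in control to 1.22 CPM in treated osteoblasts, next to the ECs at 0.681 CPM, while Gpc1 and Gpc4 stay far above the ECs and Gpc6 has about the same level in control osteoblasts and ECs.

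The second comparison set the control osteoblasts against the ECs and used the same control libraries. The osteoblasts had more RNA of 8 of the 9 tested members, by 2.25-fold for Sdc1 and by 1303-fold for Gpc4, and the exception was Gpc6. At an FDR under 0.01, 37.9% of all genes tested were higher in osteoblasts. With the log2 fold change of at least 2, 7 members passed as higher, against 9.87% of all genes tested. The median log2 difference of the 9 members was 4.09, against -0.01 over all genes. It describes genes chosen with earlier results of these data known, and genes outside the set went the other way. Gpc2 and Has3 were lower in control osteoblasts than in ECs, by log2 differences of -7.48 and -1.98, and Gpc5 and Has1 were not tested. Libraries of the groups did not overlap for 8 of the 9 tested members, against 84% of all genes tested.

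Of the 9 tested members, Gpc1 and Gpc4 had the widest gaps between the cell types. Gpc1 had 1.56, 1.77, and 1.74 CPM in the ECs, where it rested on 68, 58, and 75 counts, and was 993-fold higher in control osteoblasts (log2 difference 9.95, SE 0.08, edgeR adjusted p = 1.86e-20). Gpc4 had 0.137, 0.305, and 0.232 CPM in the ECs, from only 6, 10, and 10 counts. Each of those values was above the 3-count floor, and the log2 difference was 10.35 (SE 0.10, edgeR adjusted p = 4.42e-20). Gpc6 had 128, 133, and 129 CPM in the ECs, a range that overlapped the control osteoblasts at 114 to 133 CPM. The log2 difference of -0.07 (SE 0.05, edgeR adjusted p = 0.258) did not pass, although scaling by library totals alone put Gpc6 higher in ECs, at -0.19 (edgeR adjusted p = 0.0023). Gpc3 had 1, 0, and 0 counts in the ECs.

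Among the syndecans, Sdc3 showed the widest gap, with 64.6, 64.3, and 68.2 CPM in the ECs and a log2 difference of 4.09 (SE 0.06, edgeR adjusted p = 1.03e-18). Sdc2 had 66.3, 65.4, and 63.2 CPM in the ECs, and Sdc4 had 43.4, 43.9, and 45.1 CPM. Both were higher in every control library, with log2 differences of 3.25 and 2.30. Sdc1 was the syndecan with the smallest gap, at 114, 109.9, and 117 CPM in the ECs and a log2 difference of 1.17 (SE 0.06, edgeR adjusted p = 1.02e-11). Has2 had 0.710, 0.822, and 0.510 CPM in the ECs, 39.0-fold under the control osteoblasts (log2 difference 5.29, SE 0.12, edgeR adjusted p = 7.28e-16). Vcan had 0.779, 0.700, and 0.788 CPM in the ECs, from 34, 23, and 34 counts, a log2 difference of 5.37 (SE 0.19, edgeR adjusted p = 1.43e-13). Gm4117, an antisense gene of the Vcan locus, was counted in the ECs at 0.914 ± 0.0385 CPM (SD, n = 3), and without the strand setting its reads and those of Vcan cannot be told apart.

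The third comparison, of treated osteoblasts with ECs, shares libraries with both others and shows how far from ECs the genes remained. Has2 was within 0.86 on the log2 scale of the EC level (SE 0.20, edgeR adjusted p = 0.00108), still higher in every treated library than in any EC library. Gpc1 and Gpc4 were 8.98 and 9.50 higher on the log2 scale (SE 0.08 and 0.11, edgeR adjusted p = 2.97e-20 and 1.26e-19), and Vcan was 4.66 higher. Sdc2, Sdc3, and Sdc4 lay close together, at log2 differences of 3.12, 2.94, and 2.95, and Sdc1 at 1.22. Gpc6 was lower in the treated osteoblasts than in the ECs, with a log2 difference of -0.97 (SE 0.05, edgeR adjusted p = 7.21e-11). At an FDR under 0.01, 8 members were higher in treated osteoblasts and 1 lower, against 38.3% and 40.3% of all genes tested. With the log2 fold change of at least 2, 6 were higher, against 10.3%. Libraries of these groups did not overlap for the 9 tested members, against 85.4% of all genes tested.

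As a description, the change with treatment was set against the log2 distance from control osteoblasts to ECs, for the members that passed the test with treatment. Has2 covered 83.7% of that distance, Sdc3 28.0%, Vcan 13.2%, Gpc1 9.84%, and Gpc4 8.20%. Sdc4 moved the other way, by 28.3% of the distance. Gpc6 has no usable value, because control osteoblasts and ECs had about the same level. It fell to 53.5% of the control level and so stood below both.

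**Figure D2:**
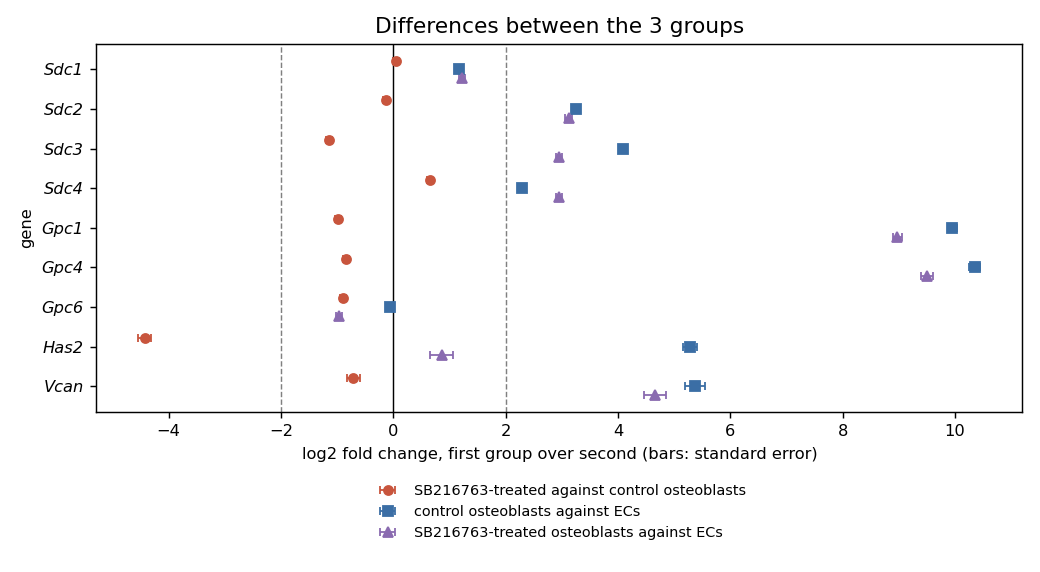
Log2 fold changes with their standard errors for the 9 tested members in the 3 comparisons, which share libraries; dashed lines stand at log2 fold changes of -2 and 2. Has2 passes that line in the treated osteoblasts, at -4.42, and Gpc1 and Gpc4 are near 10 between control osteoblasts and ECs.

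Levels of different genes were compared per length, as reads per kilobase of merged exons (RPKM, CPM divided by length). In control osteoblasts the order of mean levels was Gpc1 (324 ± 9.35 RPKM, SD, n = 3), Sdc3 (187 ± 2.15), Sdc2 (175 ± 9.74), Gpc4 (108 ± 1.83), Sdc4 (85.3 ± 2.83), Sdc1 (67.0 ± 3.97), Gpc6 (19.3 ± 1.46), Has2 (6.19 ± 0.117), Vcan (2.20 ± 0.416), and Gpc3 (0.0477 RPKM). Sdc3 and Sdc2 lay close together, at 184.5 to 188 and 165 to 184.0 RPKM. In treated osteoblasts, Gpc1 at 164 ± 8.09 and Sdc2 at 160.2 ± 10.2 RPKM overlapped and led the order (with the longest transcript as length, Gpc1 stood above, at 203 ± 10.0 RPKM), followed by Sdc4 at 134 ± 6.91 RPKM, ahead of Sdc3 at 84.4 ± 3.80 RPKM. Has2, at 0.289 ± 0.0660 RPKM, had dropped below Vcan, at 1.34 ± 0.169 RPKM. In ECs the order began with Sdc1 at 29.8 ± 0.907 and Gpc6 at 20.2 ± 0.433 RPKM (36.0 and 31.4 RPKM by the longest transcript). Then came Sdc2 at 18.4 ± 0.453, Sdc4 at 17.3 ± 0.338, and Sdc3 at 11.0 ± 0.366 RPKM. Gpc1, Has2, Gpc4, Vcan, and Gpc3 were each at or below 0.327 RPKM there.

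The families differed in how their makeup changed. The 4 syndecans summed to 515 ± 16.6 RPKM before and 448 ± 23.3 RPKM after treatment, against 76.5 ± 1.16 RPKM in ECs. Scaled by library totals alone, the sum was 477 ± 14.3 RPKM before and 478 ± 21.2 RPKM after treatment, so the lower sum after treatment depended on the scaling. Within the sum, the share of Sdc3 was 36.3% ± 0.769 in control and 18.9% ± 0.532 in treated osteoblasts, and that of Sdc4 was 16.6% ± 0.0562 and 29.9% ± 0.0503 (SD, n = 3). Sdc1 held the greatest share in ECs, at 38.9%, against 13.0% in control osteoblasts. The 4 glypicans summed to 452 ± 6.98 RPKM before and 235 ± 10.9 RPKM after treatment, against 20.7 ± 0.474 RPKM in ECs, and by library totals alone to 418 ± 7.66 and 250.5 ± 9.13 RPKM before and after treatment. Gpc1, Gpc4, and Gpc6 all fell, and their shares of 71.7%, 24.0%, and 4.28% in control osteoblasts became 69.96%, 25.6%, and 4.41%. In ECs, Gpc6 made up 98.0% ± 0.196 of the summed RPKM of these 4 glypicans (SD, n = 3), a sum that leaves out Gpc2 and Gpc5.

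**Figure D3:**
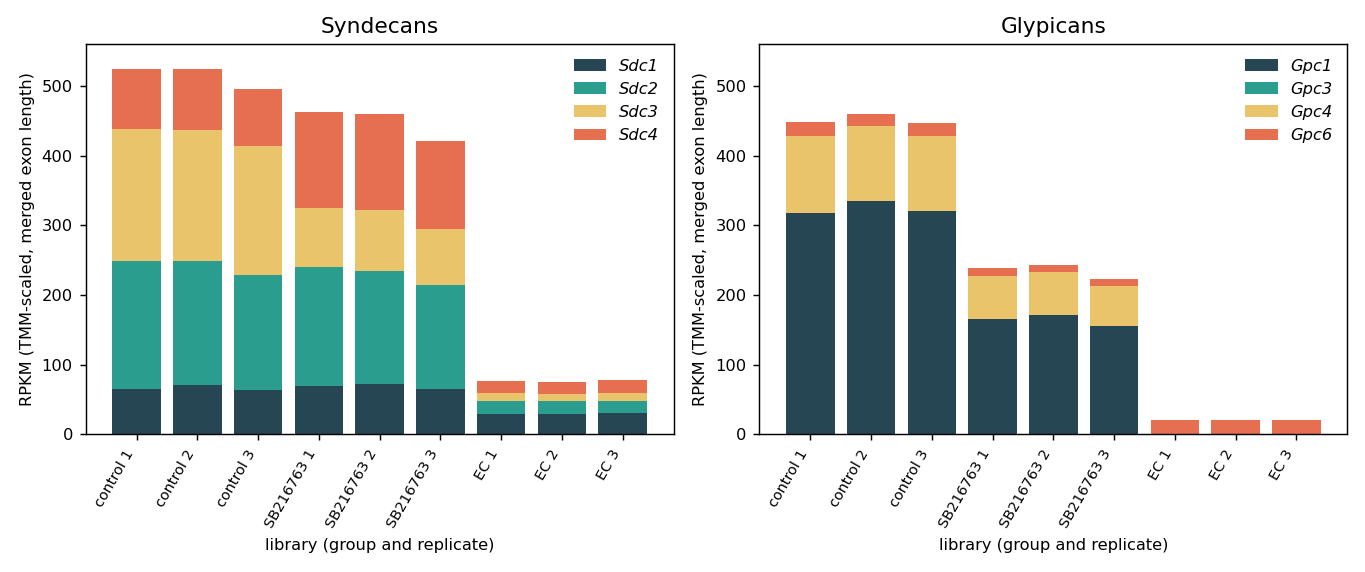
RPKM of the syndecans (left) and of the glypicans (right) in each of the 9 libraries, with 1 stacked bar per library and 1 color per gene. Sdc3 falls and Sdc4 rises with treatment, Gpc1 leads the glypicans in both osteoblast groups, and Gpc6 holds nearly all of the small glypican sum in ECs.

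The enzymes and partners of these molecules were read from 94 genes in 7 lists, of which 72 passed the expression filter. The lists were written with earlier results of these data known. Between treated and control osteoblasts, 37 were higher and 24 lower at an FDR under 0.01, against 32.9% and 32% of all genes tested. With the log2 fold change of at least 2, 7 were higher and 11 lower, against 3.81% and 5.84%. Of the hyaluronan receptors and binding proteins, 7 of 10 were lower and 2 higher. Hapln1, the link protein that fastens versican to hyaluronan, went from 53.1 ± 3.27 to 1.91 ± 0.206 CPM (SD, n = 3), a log2 fold change of -4.80 (SE 0.09, edgeR adjusted p = 2.14e-16). Hmmr, a hyaluronan-binding protein that also acts at the mitotic spindle, went from 94.3 ± 2.41 to 6.11 ± 0.180 CPM, a log2 fold change of -3.95. Ptx3, a pentraxin that cross-links hyaluronan matrices, went from 255 ± 23.5 to 20.6 ± 1.40 CPM, a log2 fold change of -3.63. The ECs had 78.7 CPM of Hmmr and 0.214 CPM of Ptx3. Layn, the receptor layilin, rose from 8.73 ± 0.638 to 48.0 ± 1.43 CPM, a log2 fold change of 2.47, and stood at 48.6 CPM in ECs.

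Among hyaluronan synthesis and turnover genes, 7 of 10 were higher and 2 lower with treatment, against 32.9% and 32% of all genes tested. Cemip, which drives the breakdown of hyaluronan, fell from 133 ± 7.82 to 14.9 ± 0.477 CPM, a log2 fold change of -3.16 (SE 0.05, edgeR adjusted p = 9.67e-17). Hexa, a lysosomal hexosaminidase subunit that degrades glycans and gangliosides, rose from 106 ± 3.26 to 639 ± 39.6 CPM, a log2 fold change of 2.59. The ECs had 3.08 CPM of Cemip and 161 CPM of Hexa. The other synthases, named here after their values were seen, were low. Has1 was not tested, with at most 12 counts in a control library, 2 in a treated library, and 7 in an EC library. Has3 had 1.12 ± 0.135 CPM in control osteoblasts, 1.39 ± 0.428 CPM in treated osteoblasts, and 4.42 ± 0.183 CPM in ECs (SD, n = 3). Its log2 fold change with treatment was 0.32 (SE 0.20, edgeR adjusted p = 0.166).

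Of the heparan sulfate synthesis genes, 10 of 18 were higher and 4 lower with treatment, against 32.9% and 32% of all genes tested. Hs6st2, which adds sulfate at the 6-O position, fell from 174 ± 7.21 to 26.6 ± 3.54 CPM, a log2 fold change of -2.71 (SE 0.07, edgeR adjusted p = 1.98e-14). The ECs had 2.90 CPM of Hs6st2. The list of heparan sulfate editing and shedding also holds the cytoplasmic adaptors of syndecan tails Sdcbp, Sdcbp2, Cask, and Gipc1. In that list, 6 of 10 genes were higher and 2 lower, against the same shares of all genes tested. Of the 6, 3 were adaptors, named after their values were seen, namely Cask (log2 fold change 0.60), Gipc1 (0.42), and Sdcbp (0.41). No gene of this list with a fold change past the threshold between treated and control osteoblasts reached 10 CPM in either group. Of the other heparan sulfate proteoglycans, 3 of 6 were higher and 2 lower, again against those shares. Col18a1, a basement membrane collagen with heparan sulfate chains, fell from 77.6 ± 1.07 to 13.6 ± 0.719 CPM, whereas ECs had 2408 ± 91.6 CPM.

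The chondroitin sulfate synthesis genes had 8 of 14 higher and 4 lower, against 32.9% and 32% of all genes tested. Csgalnact1, which starts chondroitin chains, rose from 0.135 ± 0.0352 to 13.1 ± 0.146 CPM, a log2 fold change of 6.49 (SE 0.12, edgeR adjusted p = 2.25e-16), toward the 35.6 CPM of the ECs. The sulfotransferases Chst11 and Chst15 rose from 23.8 ± 0.542 to 116 ± 2.24 CPM and from 49.2 ± 3.23 to 233 ± 11.3 CPM. ECs had 96.0 CPM of Chst11 but 2.57 CPM of Chst15. Of the 4 versican proteases tested, 3 were lower and 1 higher, against 32% and 32.9% of all genes tested. Adamts5, which cleaves aggrecan and versican, fell from 301 ± 7.76 to 45.4 ± 2.77 CPM, a log2 fold change of -2.73, and had 74.4 CPM in ECs.

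**Figure D4:**
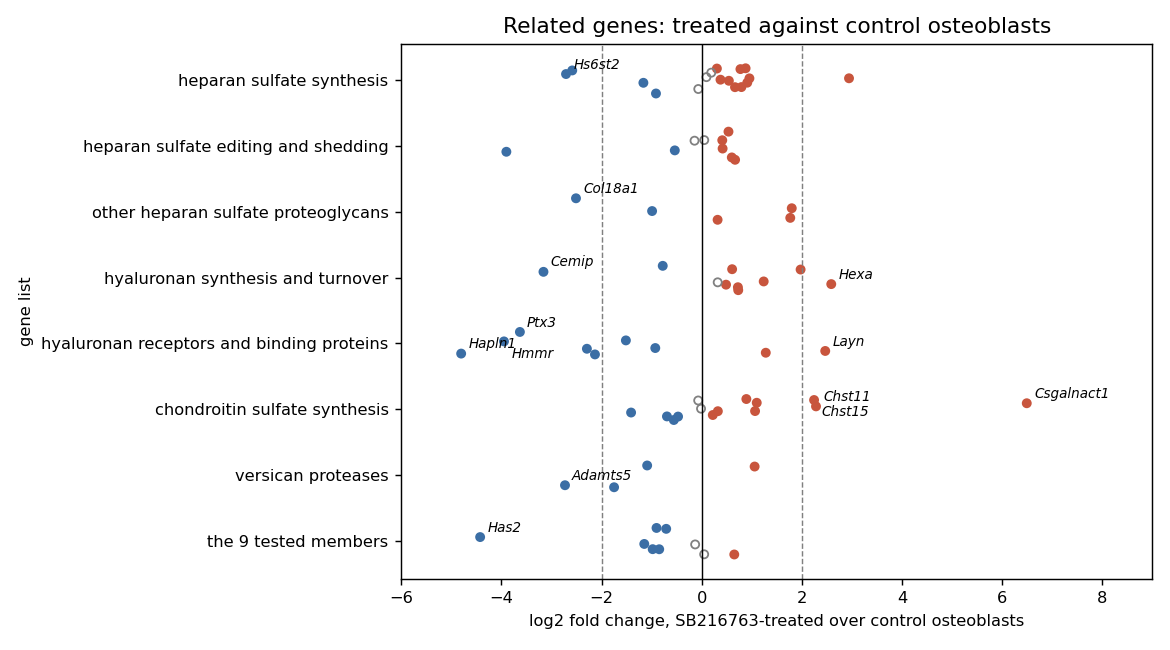
Log2 fold changes of SB216763-treated over control osteoblasts for 68 of the 72 related genes tested and for the 9 tested members, by list. Filled points passed an FDR under 0.01 (red higher, blue lower), dashed lines mark an absolute log2 fold change of 2, and the 4 genes at 3 counts or fewer in every control or every treated library (Hs3st1, Sulf1, Gpc2, and Lyve1) were left out. Of the 10 hyaluronan receptors and binding proteins tested, with Lyve1 not drawn, 5 passed as lower and lie left of the lower line, against 5.84% of all genes tested.

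In the comparison of control osteoblasts with ECs, 29 of the 72 related genes were higher in osteoblasts and 36 in ECs, against 37.9% and 39% of all genes tested. At most 2 genes per list are named here, so some wide gaps are left out. Among those is Stab1, of the hyaluronan receptors and binding proteins, at 3.86 CPM in control osteoblasts and 637 CPM in ECs (log2 difference -7.39). Named genes higher in ECs included Srgn, the core protein serglycin, at 0.0869 and 73.2 CPM (-9.76). Sdcbp2, which encodes a syntenin, had 0.272 and 56.7 CPM (-7.59), and the N-sulfotransferase gene Ndst3 had 0.107 and 11.3 CPM (-6.67). Csgalnact1 and Col18a1 were lower in control osteoblasts by log2 differences of -7.94 and -4.96, and Hyal1, a hyaluronidase, had 2.49 and 12.4 CPM (-2.29). Sulf1, which removes 6-O sulfates, was counted 0, 2, and 0 times in control osteoblasts and had 87.9 CPM in ECs. In treated osteoblasts it was counted 26, 25, and 23 times, a mean of 0.674 CPM. That rise, named after its values were seen, was 5.35 on the log2 scale (SE 0.44, edgeR adjusted p = 1.55e-08), from control counts under the floor. The 3-O-sulfotransferase gene Hs3st1 had 1, 0, and 0 counts against 20.5 CPM in ECs, and Lyve1, a hyaluronan receptor of lymphatic and some other endothelium, had 3, 2, and 0 counts against 87.8 CPM. On the osteoblast side, Chpf, a chondroitin polymerizing factor, had 235 and 1.60 CPM (log2 difference 7.21), Cemip differed by 5.43, and Adamts5 by 2.02. Hapln1 had 0, 1, and 1 counts in the ECs. Between treated osteoblasts and ECs, 30 related genes were higher in the osteoblasts and 32 in the ECs, against 38.3% and 40.3%.

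The members are spread over the genome, on 8 chromosomes of GRCm38 in GENCODE release 21, and the counts cover their exons. The syndecans lie at chr12:8771323-8793715 (Sdc1), chr15:32920723-33034935 (Sdc2), chr4:130792537-130826319 (Sdc3), and chr2:164424247-164443887 (Sdc4). Among the glypicans, Gpc1 lies at chr1:92831645-92860779, Gpc6 at chr14:116925315-117976544, and Gpc4 and Gpc3 next to each other on the X chromosome, at chrX:52053021-52165252 and chrX:52272426-52613950. Has2 lies at chr15:56665627-56694539 and Vcan at chr13:89655312-89742509. RefSeq promoters of GRCm38.p6, from 250 bases before to 50 after the start, were matched for 6 of the 10 members, namely Sdc1, Sdc3, Sdc4, Gpc3, Gpc4, and Vcan, and not for Sdc2, Gpc1, Gpc6, and Has2. The letters CTTTGA or CTTTGT, the core of TCF/LEF motifs, were absent on both strands from all 6, and were present in 31.2% of the 32851 promoters of that length. The 6 promoters were richer in G and C, at 61% to 77.7% against a median of 52.7% over all promoters, and the part of base composition in this count was not tested.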

How the data were processed

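RNA-Seq libraries of control osteoblasts, SB216763-treated osteoblasts, and ECs (n = 3 each) were analyzed. The authors aligned the reads with STAR and deposited raw counts per gene, whole numbers without normalization. Per the submitters' processing notes, STAR 2.5.3a and GRCm38 were used. The annotation release and strand setting are not given in the sources used here. Treatment protocol text is the same for every sample, so groups were read from each sample's title and treatment entry. Symbols were found for 50376 and coordinates for 50462 identifiers, in GENCODE release 21.

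Counts were filtered with filterByExpr, normalized by TMM, and tested by edgeR's quasi-likelihood test (edgeR 4.0.16, R 4.3.3) in one fit of all 9 libraries, with Benjamini-Hochberg adjustment over the 15531 genes tested. The prior count for fold changes was 0.125, and standard errors were taken from the F statistic. All 3 groups shared the same estimate of the spread, although libraries of a group differed unequally. Chi-square per gene between 2 libraries, with no adjustment to a common depth, was 27.4 to 110 in control osteoblasts. It was 3.20 to 27.3 in treated osteoblasts and 2.93 to 4.73 in ECs. CPM used TMM-scaled totals. RPKM divides them by merged exon length. The test was tried on simulated data. The members and gene lists were chosen with earlier results of these data known. Related genes were named where the FDR was under 0.01, the absolute log2 fold change at least 2, and the mean of the higher group at least 10 CPM, with at most 4 per list for treatment and 2 per list for ECs. The alternatives included DESeq2 1.42.0, limma-voom in limma 3.58.1, other scaling, filters, thresholds, and prior counts, fits of 2 groups, a replicate block, transcript length, and leaving out each library.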

Additional observations from a re-analysis of the deposited data

How the results depend on the processing

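Of the 540 alternative log2 fold changes of the members, 525 kept their direction and side of the FDR threshold in use. Some of the 540 repeat main values, so the count overstates how many were free to change. An FDR under 0.05 kept the main fit, the test against 2 kept its fold changes, and the larger prior count kept its adjusted p-values. When tested for exceeding 2 on the log2 scale, 10 values under 2 in size no longer passed, among them all members called with treatment but Has2. Scaling by library totals alone moved the median of all genes with treatment from 0.01 to 0.22 and turned the log2 fold change of Sdc2 with treatment to 0.0726. It put 2 rather than 1 members higher with treatment at an FDR under 0.01. The calls over all genes moved from 5117 higher and 4966 lower to 6722 and 3828. That scaling also put 1 member, Gpc6, higher in ECs than in control osteoblasts. An FDR under 0.05 called Sdc2 lower with treatment. Leaving out 1 library moved the log2 difference of Gpc6 between control osteoblasts and ECs from -0.11 to 0.000495, the latter without control replicate 2. With a log2 fold change of at least 1, 2 members (Has2 and Sdc3) were lower with treatment (13% of all genes tested). Of the related genes, 15 were higher and 16 lower with treatment (11.1% and 13%). In control osteoblasts, 16 were higher and 22 lower than in ECs (17.5% and 21.2%). In treated osteoblasts, 16 were higher and 23 lower than in ECs (19.2% and 23.2%). With the longest transcript as length, the shares in control osteoblasts, treated osteoblasts, and ECs were 39.5%, 21.0%, and 15.4% for Sdc3, 15.5%, 28.7%, and 21.0% for Sdc4, 74.3%, 72.7%, and 1.27% for Gpc1, and 5.57%, 5.74%, and 98.5% for Gpc6. Same-numbered control and treated libraries had correlations of 0.00286, 0.123, and 0.0810 in their deviations, and 4 of the 9 libraries correlated best with their own number, so the numbers were not taken as pairs. A replicate block left 6 members lower and 1 higher with treatment. Depth limits Gpc3, and Gpc4 in ECs, most.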

Other observations

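Gpc3 and Gpc4 are neighbors on the X chromosome, and Gpc5 and Gpc6 are neighbors on chromosome 14, yet the levels within each pair differed widely. Gpc4 had 287 ± 4.85 CPM in control osteoblasts (SD, n = 3), where Gpc3 had 19 counts in all 3 libraries together. Gpc6 was above 64 CPM in all 9 libraries, while Gpc5 had at most 2 counts in any of them. Gpc2, named here after its values were seen, had 24, 12, and 28 counts in the ECs and 0 counts in all 6 osteoblast libraries. Tnfaip6, also named after its values were seen, encodes an enzyme that modifies hyaluronan with heavy chains. It had 4.82 ± 0.118 CPM in control and 1.10 ± 0.133 CPM in treated osteoblasts and 0.174 ± 0.0185 CPM in ECs (SD, n = 3). It fell with treatment, with a log2 fold change of -2.13 (SE 0.13, Benjamini-Hochberg adjusted p = 4.65e-10, quasi-likelihood test of edgeR). Cd44, the main hyaluronan receptor and chosen in the same way, had 574 ± 20.2 CPM in control and 301.9 ± 10.99 CPM in treated osteoblasts and 342 ± 10.1 CPM in ECs (SD, n = 3).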
